A study of Canis lupus familiaris with 18 samples.

Results

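Of the 84 genes on a canine mesenchymal stem cell RT-qPCR array, 6 mark the cells of the vessel wall. PDGFRB, MCAM, ACTA2 and NES are markers of mural cells, that is pericytes and vascular smooth muscle cells, and KDR and VWF are markers of endothelial cells. The 6 genes were taken by their symbols and are described here in every sample. They were measured in mesenchymal stem cells grown from the fat of 9 female dogs (cAD-MSCs) at passage 3 (P3, labelled as the control group) and again at passage 6 (P6), which gives 18 samples, 9 per passage. Both passages came from the same dogs, numbered here as donors 1 to 9 after the replicate number in the labels. The fat was digested with collagenase, the whole stromal vascular fraction was seeded, and adherent cells were grown in low glucose medium with fetal bovine serum. RNA was taken when the flasks were close to confluence. No sort for a cell type is described before the RNA was taken, so a sample is the adherent population of 1 dog at 1 passage.

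Pericytes wrap capillaries, and smooth muscle cells wrap the larger vessels of adipose tissue, where endothelial cells line the lumen. The platelet-derived growth factor receptor β on pericytes answers ligand that endothelial cells release, and endothelial cells in turn answer vascular endothelial growth factor (VEGF) through the receptor that KDR encodes. Cultured MSCs share several markers with pericytes, and smooth muscle actin is often made by fibroblast-like cells on plastic, so none of the 4 mural genes is specific to a vessel wall cell in culture.

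Each gene was read in 1 well per sample as a threshold cycle (CT), the number of PCR cycles that the well needed to reach a fixed signal, so less transcript gives a later CT. Wells later than 35 cycles or undetermined were taken as 35. The CT was subtracted from the geometric mean of the 5 reference genes, which gives −ΔCT, a log2 scale with 1 unit for each 2-fold step. A value of 0 is the level of the reference genes, and lower values stand for less transcript. Levels of different genes can be set against each other only if their assays amplify equally well, which the data do not measure. In RNA of a whole culture, fewer cells of a type and less RNA per cell cannot be told apart.

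The mean CT of the reference genes lay between 14.11 and 15.71 at P3 and between 14.13 and 15.12 at P6, and the genomic DNA control was undetermined in all 18 wells. Some samples stood apart. With a distance of over 5 cycles from the median of the gene over the 18 samples as the measure, the P6 sample of donor 2 had 18 distant genes of 84, the P6 sample of donor 9 had 11, the P3 sample of donor 9 had 8 and the P6 sample of donor 8 had 7. The other 14 samples had 0 to 5. Among the 108 values of the 6 genes, 6 (5.56%) were distant, against 75 of 1512 (4.96%) over all genes. These were MCAM and NES in donor 9 at P3, MCAM and KDR in donor 2 at P6, PDGFRB in donor 5 at P6 and KDR in donor 9 at P6.

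**Figure D1:**
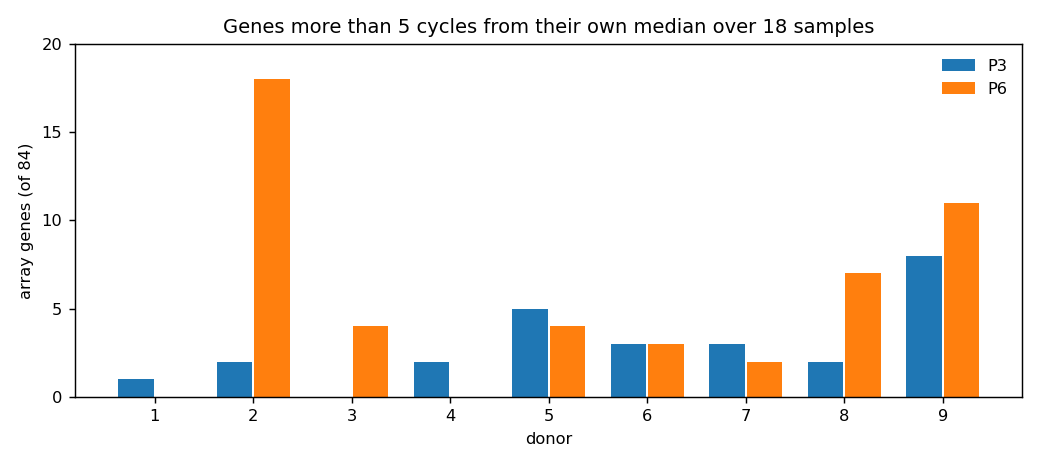
Number of array genes, of 84, whose −ΔCT lay more than 5 cycles from the median of that gene over the 18 samples, by donor (x axis) and passage (bar colour). The P6 samples of donors 2 and 9 have the most, 18 and 11.

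Transcripts of all 6 genes were found in nearly every sample, with the mural genes mostly above the endothelial ones. ACTA2 was the most abundant and VWF the least. A CT under 35 was recorded for PDGFRB, MCAM, ACTA2 and VWF in 18 of 18 samples. NES was undetermined in donor 9 at P3 and KDR in donor 9 at P6, so that 4 of the 6 genes were detected in all samples, against 51 of 84 (60.7%) over the array. No difference in detection between the passages passed for any of the 6 genes (Fisher's exact test, two-sided p = 1 for each, with 2 of 84 genes or 2.38% under an unadjusted 0.05). With at most 1 undetermined well per gene this test can give no other p, so it says nothing about detection of these 6. By their medians the genes had the same order at both passages, namely ACTA2, NES, PDGFRB, KDR, MCAM and VWF.

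ACTA2 encodes smooth muscle α-actin, the contractile actin of vascular smooth muscle and of myofibroblasts. Its −ΔCT ranged from −2.23 to 1.98 at P3, with a median of 0.62, and from −3.63 to 1.75 at P6, with a median of −0.09. The medians equal 154% of the reference level at P3 and 94.1% at P6, and ACTA2 ranked 3 of the 84 genes by median at P3 and 4 at P6. At P3 donor 8 was highest and donor 7 lowest, and at P6 donor 2 was highest and donor 3 lowest. The ranges of the passages overlap over most of their length.

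NES encodes nestin, an intermediate filament protein known from neural progenitors and found in some pericytes. At P3 the −ΔCT of NES ranged from −6.99 to −4.39 in the 8 samples where it was detected, the undetermined well of donor 9 was set to −20.89, and the median of all 9 was −5.27. At P6 it ranged from −6.90 to −3.37, with a median of −5.21, and donor 9 was at −5.05. Apart from donor 9 at P3, NES lay within a narrow range in both passages, at 2.60% of the reference level by the median of P3 and 2.70% by that of P6.

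PDGFRB encodes the receptor for platelet-derived growth factor B, by which pericytes are recruited to growing vessels. Its −ΔCT ranged from −8.45 to −4.81 at P3, with a median of −5.95, and from −11.97 to −5.02 at P6, with a median of −7.40. These medians equal 1.62% and 0.592% of the reference level. Donor 5 had the highest value of all at P3 and the lowest of all at P6, a change of −7.16. Donor 8 changed by −2.99 and donor 6 by −1.74, while in 5 donors the passages differed by less than 1 unit.

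MCAM encodes CD146, a cell adhesion molecule of pericytes, smooth muscle and endothelium. The −ΔCT of MCAM ranged from −13.11 to −5.99 at P3, with a median of −10.95, and from −13.56 to −2.93 at P6, with a median of −11.89. Donor 7 was lowest at both passages. Donor 9 was highest at P3, and donor 2 was highest at P6, where it lay at −2.93 with the next sample, donor 9, at −8.65. By the medians MCAM stood at 0.0505% of the reference level at P3 and 0.0264% at P6.

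KDR encodes VEGF receptor 2, the main signalling receptor of endothelial cells for VEGF. At P3 its −ΔCT ranged from −11.84 to −8.17, with a median of −9.46. At P6 the median was −9.31, but the range was far wider, from the undetermined well of donor 9 at −20.87 to 2.52 in donor 2. The CT of donor 2 at P6 was 12.18, so the well crossed earlier than the mean of the reference genes, and donor 8 stood at −4.43. The other 6 donors lay between −11.07 and −8.75 at P6. The SD over donors was 1.13 at P3 and 6.12 at P6.

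VWF encodes von Willebrand factor, the clotting protein that endothelial cells store. Its −ΔCT ranged from −14.30 to −10.54 at P3, with a median of −12.16, and from −15.53 to −7.60 at P6, with a median of −13.59. The highest value at P6 was that of donor 8, in the same sample that had a high KDR, while donor 2 had a VWF of −14.35 where its KDR was highest. At the medians VWF stood at 0.0218% and 0.00812% of the reference level, the lowest of the 6 genes at both passages.

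**Figure D2:**
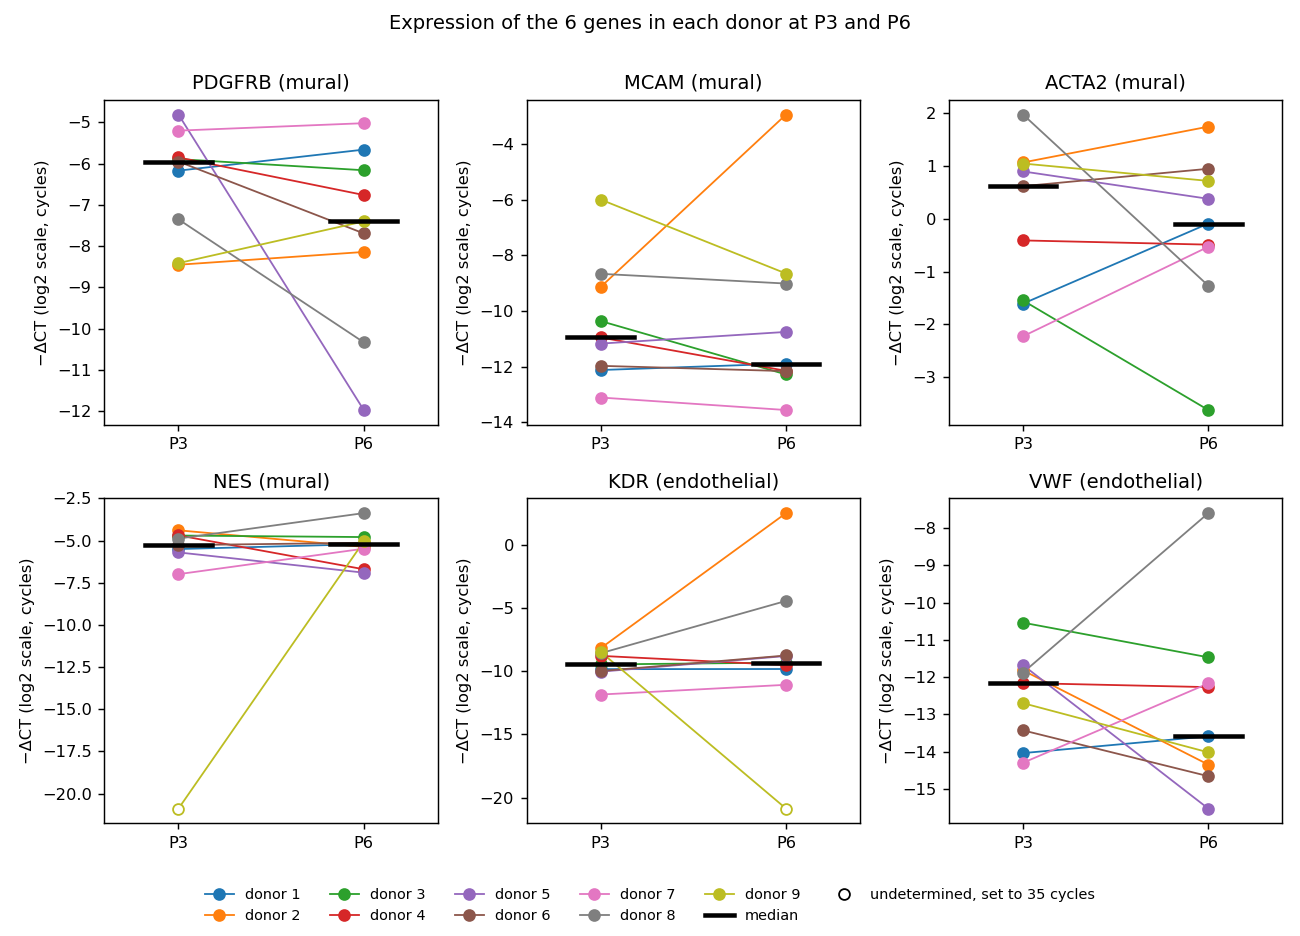
−ΔCT (log2 scale) of the 6 genes in each donor at P3 and P6, with a line joining the passages of a donor. Open symbols mark the undetermined wells set to the limit of 35 cycles, NES in donor 9 at P3 and KDR in donor 9 at P6.

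The order of the genes held in most samples, though neighbours in it overlapped. ACTA2 was above the other mural genes and VWF in 18 of 18 samples and above KDR in 17, the exception being donor 2 at P6. NES was above PDGFRB in 6 of the 9 P3 samples and 8 of the 9 P6 samples, and their ranges overlap at both passages. PDGFRB was above KDR in 8 of the 9 P3 samples and 6 of the 9 P6 samples. KDR, an endothelial gene, was above the mural gene MCAM in 16 of 18 samples, and the median of MCAM minus KDR was −1.14 at P3 and −2.64 at P6. MCAM was above VWF in 9 of the 9 P3 samples and 6 of the 9 P6 samples. KDR was above VWF in 17 of 18 samples, and at P3 by 1.08 to 4.23 within a donor (median 3.38). Taken over donors, the ranges of KDR and MCAM overlap, as do those of MCAM and VWF.

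The mean of the mural genes was above that of the endothelial genes in every sample. The mean −ΔCT of the 4 mural genes was −5.96 ± 1.17 at P3 and −5.91 ± 1.05 at P6 (SD, n = 9). For the 2 endothelial genes it was −10.98 ± 1.04 at P3 and −10.87 ± 3.45 at P6. The difference, in which the reference genes cancel, was 5.02 ± 1.27 (SD, n = 9) at P3, with a median of 5.50, and 4.96 ± 3.36 at P6, with a median of 4.85. It was above 0 in 18 of 18 samples. That count rests in part on ACTA2, which was above the other mural genes in every sample. Without ACTA2 the mural mean would lie below the endothelial mean in donor 9 at P3 and in donor 8 at P6. This set difference is a description, with no test, and rests on equal amplification of the assays.

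At P3 the difference ran from 2.02 in donor 9 to 6.19 in donor 7. At P6 it ran from 0.02 in donor 8, where KDR and VWF were both high, to 12.35 in donor 9, where KDR was undetermined. Both values of donor 9 rest on an undetermined well. Between the passages the difference was smaller at P6 in 7 of 9 donors and larger in 2, with a median change of −0.70 and a mean change of −0.05 (SD 4.26). Without donors 2 and 9 the mean change was −1.18, and with an undetermined well set to 40 cycles in place of 35 it was 0.36. It was also above 0 when donor 2, 3, 4, 5, 7 or 8 was left out (0.02 to 0.62). A mean change this close to 0 thus has no settled sign.

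**Figure D3:**
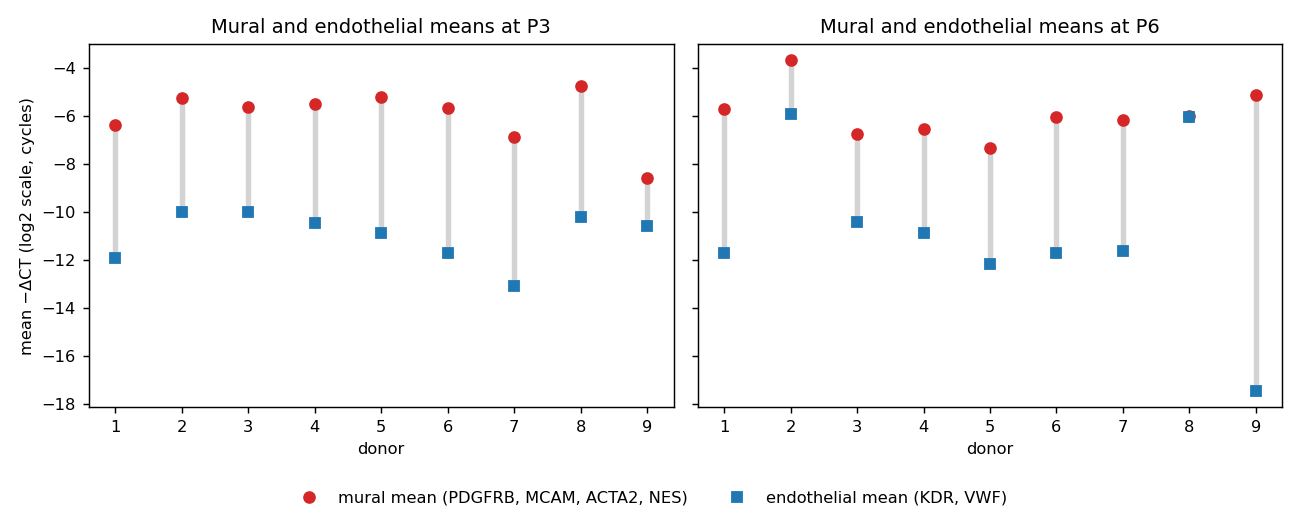
Mean −ΔCT (log2 scale) of the 4 mural genes and of the 2 endothelial genes in each donor at P3 (left) and P6 (right), joined by a bar. The mural mean is above the endothelial mean in all 18 samples, by as little as 0.02 in donor 8 at P6 and as much as 12.35 in donor 9 at P6. It includes ACTA2, without which the order would turn in donor 9 at P3 and in donor 8 at P6.

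No change between P3 and P6 passed the test for any of the 6 genes. With limma over all 84 genes, 0 of 6 had an adjusted p under 0.05 and 0 of 6 an unadjusted p under 0.05. Over the array 1 gene of 84 (1.19%) passed the first threshold and 5 (5.95%) the second. The count was also 0 of 6 by the exact permutation test, by the test of the study's methods on linear levels (2 to the power −ΔCT) and in limma with donors as blocks, in each case with and without adjustment. The median difference of the 6 genes was −0.11, with 3 higher and 3 lower at P6, beside −0.05 over all 84 genes.

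PDGFRB had the largest mean difference downward among the 6. Its mean −ΔCT was −6.45 ± 1.32 (SD, n = 9) at P3 and −7.68 ± 2.24 (SD, n = 9) at P6, a log2 difference of −1.23 (standard error 0.846, 95% interval −3.01 to 0.55, adjusted p = 0.873 from limma). Its P6 value was the lower in 5 of 9 donors and higher in 4, with a median change of −0.27. Without donor 5 the difference was −0.49. PDGFRB is thus 1 of 2 members whose means lay at least 2-fold apart, where 31 of 84 genes (36.9%) did, 21 lower (25%) and 10 higher (11.9%).

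NES was the other, in the opposite direction. Its mean was −7.00 ± 5.27 at P3 and −5.33 ± 1.04 at P6 (SD, n = 9), a log2 difference of 1.66 (standard error 1.71, 95% interval −1.93 to 5.26, adjusted p = 0.873 from limma). The undetermined well of donor 9 at P3 sets this value, since the difference was −0.11 without donor 9 and the medians differed by 0.06. NES was higher at P6 in 5 donors and lower in 4.

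The other 4 genes had mean differences between −0.35 and 0.56, each smaller than its standard error. MCAM was −10.38 ± 2.17 at P3 and −10.38 ± 3.22 at P6 (SD, n = 9), a difference of 0.01 (95% interval −2.61 to 2.62, adjusted p = 0.996 from limma), although its P6 value was the lower in 6 of 9 donors. The change in donor 2 was 6.20, and without it the difference was −0.77. ACTA2 was −0.02 ± 1.48 at P3 and −0.25 ± 1.56 at P6 (SD, n = 9), a difference of −0.23 (95% interval −1.72 to 1.26, adjusted p = 0.982 from limma). The interval of ACTA2 is the narrowest of the 6.

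KDR was −9.46 ± 1.13 at P3 and −8.89 ± 6.12 at P6 (SD, n = 9), a difference of 0.56 (95% interval −3.60 to 4.72, adjusted p = 0.982 from limma). It was higher at P6 in 7 of 9 donors and lower in donors 4 and 9. Without donor 2 the difference was −0.70 and without donor 9 it was 2.18, so leaving out donor 2 alone turned its sign. Without donors 2 and 9 the difference was 0.97, and without donors 2, 8 and 9 it was 0.44. VWF was −12.50 ± 1.22 at P3 and −12.85 ± 2.37 at P6 (SD, n = 9), a difference of −0.35 (95% interval −2.17 to 1.47, adjusted p = 0.969 from limma), and its P6 value was the lower in 6 of 9 donors. By medians, PDGFRB (−1.45) and VWF (−1.43) were the 2 of 6 genes at least 2-fold apart, beside 14 of 84 (16.7%) over the array.

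**Figure D4:**
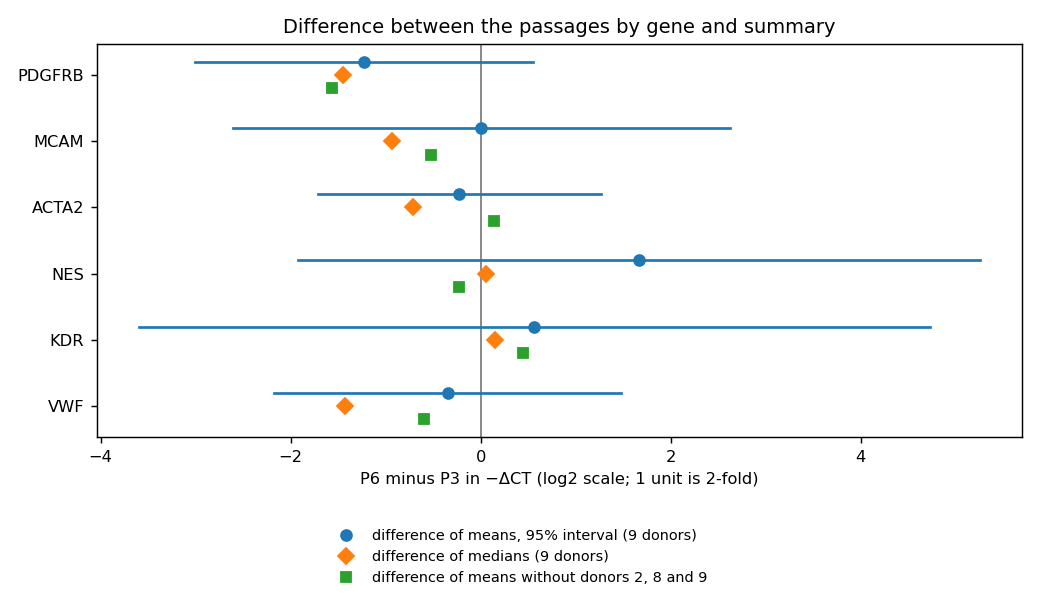
P6 minus P3 in −ΔCT (log2 scale) for the 6 genes, as the difference of means with its 95% interval from limma (circles), the difference of medians (diamonds) and the difference of means without donors 2, 8 and 9 (squares). Every interval holds 0, and the 3 summaries share a sign only for PDGFRB, KDR and VWF.

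The donors fall into those whose labels end in 21 (donors 1 to 4) and those ending in 22 (donors 5 to 9), and the meaning of the number is not given. PDGFRB differed by −0.09 in the first and −2.14 in the second, KDR by 2.53 and −1.01, NES by −0.70 and 3.56 and MCAM by 0.83 and −0.65. ACTA2 differed by 0.01 and −0.42, and VWF by −0.78 and 0.00. The difference between these sets of donors did not pass the test for any of the 6 genes (interaction in limma, adjusted p = 0.935 for each).

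At P3 the 3 donors with the least PDGFRB, donors 2, 9 and 8, had the 3 highest values of MCAM, of KDR and of ACTA2. Across the 9 donors the levels of PDGFRB and MCAM at P3 correlated with a Pearson's r of −0.83 (exact permutation p = 0.00476, adjusted 0.182) and a Spearman's rho of −0.63 (p = 0.0760, adjusted 0.517). For PDGFRB and KDR r was −0.77 (exact permutation p = 0.0135, adjusted 0.204) and rho −0.83 (p = 0.00827, adjusted 0.235). For MCAM and KDR r was 0.79 (exact permutation p = 0.0141, adjusted 0.207) and rho 0.87 (p = 0.00451, adjusted 0.198). For PDGFRB and ACTA2 r was −0.55 (exact permutation p = 0.131, adjusted 0.628) and rho −0.58 (p = 0.108, adjusted 0.586). For MCAM and ACTA2 r was 0.65 (exact permutation p = 0.0526, adjusted 0.380) and rho 0.80 (p = 0.0138, adjusted 0.278). For ACTA2 and KDR r was 0.67 (exact permutation p = 0.0428, adjusted 0.344) and rho 0.68 (p = 0.0503, adjusted 0.419). VWF, the other endothelial gene, had an r of −0.16 and a rho of 0 with PDGFRB (exact permutation p of r = 0.676, adjusted 0.932). The p-values are two-sided and were adjusted over the 483 pairs of a member with any other array gene.

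None of the pairs named above passed after adjustment. Of all 483 pairs at P3, 1 passed by r, with a gene outside the 6, and 0 by rho. An unadjusted p under 0.05 was found for 64 of the 483 (13.3%) by r and 55 by rho. When the 2 donors with the most extreme PDGFRB were left out, r was −0.68 with MCAM and −0.66 with KDR, and r of MCAM with KDR was 0.89 without the 2 farthest in MCAM. Over the 6 donors other than 2, 8 and 9, r of PDGFRB was −0.14 with MCAM, −0.50 with KDR and 0.26 with ACTA2, and r of MCAM with KDR was 0.82, so the relations of PDGFRB with MCAM and ACTA2 rest on those 3 donors. The pairs share the samples and the reference genes. With the median of the genes detected in all samples as the reference, r of PDGFRB was −0.79 with MCAM and −0.84 with KDR. The sets of donors with labels ending in 21 or 22 hold 4 and 5 donors, fewer than the 6 taken here as the least for a correlation, and none was computed within them.

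At P6 the same pairs were weaker by r. PDGFRB had an r of −0.36 and a rho of −0.65 with MCAM (exact permutation p of rho = 0.0666, adjusted 0.536), and an r of −0.27 and a rho of −0.70 with KDR (p of rho = 0.0433, adjusted 0.536). The values of KDR at P6 include the undetermined well of donor 9 and the high wells of donors 2 and 8. ACTA2 with VWF had an r of −0.63 and a rho of −0.87 (exact permutation p of rho = 0.00451, adjusted 0.513). NES with VWF had an r of 0.69 (exact permutation p = 0.0484, adjusted 0.467) and a rho of 0.52. Of all 483 pairs at P6, 0 passed after adjustment. An unadjusted p under 0.05 was found for 48 (9.94%) by r and 37 by rho. Whether the correlations differ between the passages was not tested. Correlations of the P6 minus P3 changes over the donors were planned, unlike those of the levels. No pair of members passed after adjustment, and 1 had an unadjusted p of r under 0.05. It was MCAM with KDR, at r 0.81 (exact permutation p = 0.0315, adjusted 0.423) and rho 0.73 (p = 0.0311, adjusted 0.640). Without the 2 donors farthest in MCAM its r was 0.32. Of all 483 pairs 0 passed, and 50 (10.4%) had an unadjusted p of r under 0.05.

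**Figure D5:**
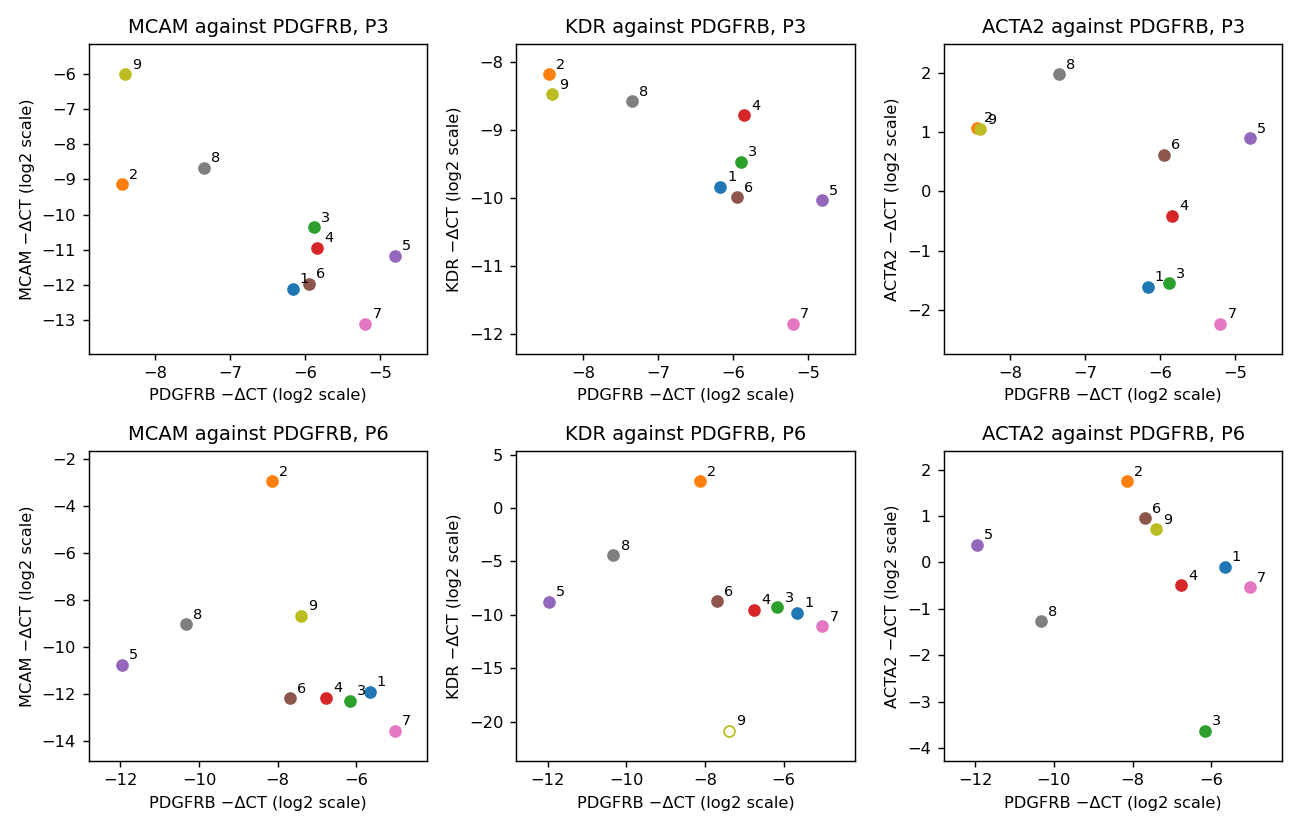
−ΔCT (log2 scale) of MCAM, KDR and ACTA2 against that of PDGFRB over the 9 donors at P3 and P6, with points numbered by donor and an open symbol for an undetermined well. At P3 donors 2, 8 and 9 have the lowest PDGFRB and the highest values of the other 3 genes.

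The level of a donor at P3 was related to its level at P6 to a different degree for each gene, and for none past the adjusted threshold. For MCAM r was 0.62 (exact permutation p = 0.0833, adjusted 0.304) and rho 0.70 (p = 0.0433, adjusted 0.191), and r was 0.79 when the 2 donors with the most extreme MCAM at P3 were left out. ACTA2 had an r of 0.44 and a rho of 0.37, KDR 0.21 and 0.27, VWF 0.21 and −0.02, PDGFRB 0.04 and 0.18, and NES −0.07 and 0.05. Over the 84 genes the median r was 0.30 and the median rho 0.37. Of the 84, 3 passed the adjusted threshold by r and 0 by rho. An unadjusted p under 0.05 was found for 18 by r and 19 by rho. By r, MCAM was the highest of the 6 genes and NES the lowest.

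The array genes closest to each member were taken by the smallest SD, over the 18 samples, of the difference in −ΔCT from the member. A gene that itself varies little can also score low, so closeness need not mean a shared pattern. Among those named below, PTK2 had an SD of its own of 0.552, FGF2 of 0.653 and PIGS of 0.882. ACTA2 was closest to ICAM1, an adhesion molecule for leukocytes (SD 0.920), and to the focal adhesion kinase gene PTK2 (1.24), beside an SD of 1.48 for ACTA2 itself. VWF was closest to the cytokine gene IL6 (1.20) and to ENG (1.53), with an SD of its own of 1.84, and PDGFRB to PIGS (1.36) and FGF2 (1.61), with 1.89. MCAM was closest to FZD9 (1.95) and ICAM1 (2.01), with 2.66 of its own. The values of NES, with CD44 and LIF at 2.65 each, and of KDR, with INSR (2.73) and BMP2 (3.19), carry their distant wells. No other member was among the 2 closest genes of any member.

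Genes that act with the 6 gave no call either. Of 8 genes for vascular ligands and signalling, 0 passed the adjusted or the unadjusted threshold in limma (lowest adjusted p 0.873, median difference 0.02). VEGFA, the ligand of the KDR receptor, lay between −3.97 and −0.88 at P3 and between −4.02 and −1.94 at P6, and differed by −0.80 (standard error 0.436, adjusted p = 0.873 from limma), with lower values at P6 in 6 of 9 donors. At P3 the lowest VEGFA value was above the highest of KDR (−8.17). At P6 this did not hold, since the KDR of donor 2 (2.52) was above the highest VEGFA value. TGFB1 and TGFB3, ligands that raise smooth muscle actin in many cultured cells, differed by 0.22 and −0.41, and neither passed. JAG1, a Notch ligand, differed by 0.59. Its receptor gene NOTCH1 differed by −1.05 with 1 well at the CT limit, that of donor 2 at P6, and it was higher at P6 in 5 of 9 donors, with medians that differed by −0.39.

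Of 6 other surface proteins of endothelial or perivascular cells, 0 passed either threshold and the median difference was 0.26. ENG, the TGF-β co-receptor endoglin of endothelium and MSCs, lay between −6.08 and −4.40 at P3 and between −5.87 and −1.89 at P6, and differed by 0.20. ANPEP, the aminopeptidase CD13 of pericytes and MSCs, differed by 0.02 (standard error 0.366). NGFR, a marker of MSC subsets, differed by 0.38. Of 6 genes for cytoskeleton and adhesion 0 passed, with a median difference of 0.08, and VIM, which encodes the filament partner of nestin, was the most abundant gene at P3 and differed by 0.12. The 6 MSC markers also gave 0 calls at both thresholds (median difference 0.46).

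Markers of other cell types that a stromal vascular fraction can hold were also on the array. Of 2 leukocyte markers 1 passed, PTPRC, which encodes CD45. All 9 donors had less PTPRC at P6, with a difference of −4.38 (adjusted p = 0.0300 from limma). At P6 5 of its 9 wells were at the CT limit, so the value depends on that limit (−3.00 with a limit of 32 cycles and −6.83 with 40). Its adjusted p was 0.0518 by the exact permutation test, 0.0508 without ACTB and B2M as references and between 0.00432 and 0.0872 with a donor left out, above 0.05 without donor 1, 3, 7, 8 or 9. ITGAX, which encodes the integrin CD11c, differed by −4.91 and did not pass (adjusted p = 0.0519 from limma), with lower values in 8 of 9 donors and 6 wells at the limit at P6 and 1 at P3.

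Of 3 adipocyte markers 0 passed after adjustment and 2 had an unadjusted p under 0.05. LPL, the gene of lipoprotein lipase, differed by −3.41 (adjusted p = 0.222 from limma) and ADIPOQ, the adiponectin gene, by −3.29 (adjusted p = 0.345), each lower at P6 in 8 of 9 donors and with 2 wells at the limit at P6. PPARG, the regulator of fat cell differentiation, differed by 2.63 (adjusted p = 0.873), with its highest P6 value, 7.56, in donor 5. The summed level of the 2 leukocyte markers, as a ratio to the reference genes and with wells at the limit counted at the limit, lay between 2.67e-05 and 0.0104 at P3 and between 1.04e-06 and 2.13e-05 at P6, where the lowest sum is an upper bound, since both genes were at the limit in that sample. For the 3 adipocyte markers the sum lay between 0.000537 and 0.00250 at P3 and between 0.000280 and 188.5 at P6. The highest sum is almost wholly 1 well, the PPARG of donor 5 at P6 (7.56), where the median of PPARG at P6 was −10.91. The part of these cell types in the values of the 6 genes was not tested.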

How the data were processed

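The authors ran an RT-qPCR array with SYBR Green primers on total RNA of each sample (84 genes, 5 reference genes, 1 well each) and deposited the threshold cycles (CT, in cycles, not normalized). They also deposited means per passage after a CT limit of 35 and normalization to ACTB, B2M, HPRT1, PGK1 and RPL13A, which served only as an alternative (their differences lay within 0.00620 of those computed here). A further table holds the authors' own fold changes and was not used. The dog genome build and primer sequences are not given in the sources used here. All 6 symbols matched the RefSeq gene table. The transcript identifiers given for the array matched it for only 3 of the 6, and not for MCAM, ACTA2 and NES.

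Here wells later than 35 cycles or undetermined were taken as 35, and −ΔCT was computed against the geometric mean of the 5 reference CTs. P6 was compared with P3 in limma 3.58.1 (R 4.3.3), unpaired as in the methods, two-sided, with Benjamini-Hochberg adjustment over 84 genes and a threshold of 0.05. Correlations were tested over all 362880 pairings of 9 donors (Python 3.11.15, numpy 2.4.6). The scripts were tested on simulated data. No read depth applies. 1 well per gene and 9 donors set the precision, and the spread between donors includes well error.

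The donors pair the passages, since both come from the same dogs. Deviations from the passage mean correlated between a donor's samples at 0.066 to 0.643 (median 0.161). Between samples of different donors (72 pairs) they correlated at −0.410 to 0.364 (median −0.034), so the 2 ranges overlap. The donor block was an alternative, as were CT limits of 32 and 40, other references, robust regression, an exact permutation test, the methods' unpaired test on linear levels (2 to the power −ΔCT), a filter on mean CT of 30 and each donor left out. Chosen after seeing the data were the fits without donors 2 and 9 (or 2, 8 and 9), medians, the correlations of levels between genes (with and without donors 2, 8 and 9) and between passages, the interaction with the label ending and the values of PTPRC under the alternatives. The members and gene lists were chosen with earlier results of these data known. Named are the 6 genes, the 2 array genes nearest to each, and from the other lists genes with an unadjusted p under 0.05 or that act with a member.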

Additional observations from a re-analysis of the deposited data

Results flagged for a closer look

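Within each passage, the highest and the lowest of the 9 samples were examined for a gap to the next value that exceeds Dixon's 95% critical share of the whole range, which chance passes in about 1 of 20 groups. Over 14 groups (the 6 genes and the mural minus endothelial difference at 2 passages) 5 held such a sample. MCAM was highest in donor 2 at P6 at −2.93, with a gap of 0.538 of the range. NES was lowest in donor 9 at P3 at −20.89, the undetermined well, with a gap of 0.843. KDR was lowest in donor 7 at P3 at −11.84, with a gap barely over that share. The mural minus endothelial difference was lowest in donor 9 at P3 at 2.02, with a gap of 0.565, and highest in donor 9 at P6 at 12.35, with a gap of 0.516. Donor 9 thus accounts for 3 of the 5, each through NES or KDR at the CT limit. The high KDR of donor 2 at P6 (2.52) did not pass this measure, with a gap of 0.297 of the range to the next value, −4.43. That range reaches down to the undetermined KDR of donor 9 at −20.87, and the share without that well was not tested.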

How the results depend on the processing

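In 144 tests of the 6 genes under alternatives none crossed the threshold, and 123 kept the sign. Part of that agreement is fixed in advance. The exact permutation test, the donor block and the filter on mean CT leave the difference itself unchanged. The CT limits of 32 and 40 leave it unchanged for PDGFRB, MCAM, ACTA2 and VWF, which had no well at the limit. Medians and the authors' deposited means, which give no test, kept it in 10 of 12 comparisons (the deposited means of MCAM differed by 0). With the donor as a block, which uses the pairing, adjusted p was 0.741 for PDGFRB and NES, 0.891 for ACTA2 and VWF, 0.950 for KDR and 0.994 for MCAM, and the difference of PDGFRB stayed at −1.23. PDGFRB was lower at P6 under every alternative that can change its difference (−1.51 to −0.49 with a donor left out, −2.14 to −0.09 otherwise). The sign of the other 5 turned under some. MCAM (0.01 as reported) was −0.16 against the median of the genes detected in all samples, −0.38 by robust regression, −0.65 in donors with labels ending in 22, −0.50 without donors 2 and 9, −0.52 without donors 2, 8 and 9, −0.94 by medians and −0.77 to 0.34 with a donor left out. ACTA2 was 0.00799 in donors ending in 21, 0.14 without donors 2, 8 and 9, and −0.47 to 0.15 with a donor left out. NES was −0.0431 by robust regression, −0.70 in donors ending in 21, −0.23 without donors 2, 8 and 9, and −0.11 to 2.12 with a donor left out. KDR (0.56) was −1.01 in donors ending in 22 and −0.70 to 2.18 with a donor left out. VWF was 0.10 without donors 2 and 9, 1.56 as the log2 ratio of mean linear levels in the methods' test, and −0.93 to 0.0896 with a donor left out. That ratio was also 2.62 for MCAM and 8.50 for KDR, and 1 sample held 95.6% of the summed P6 level of MCAM, 99.0% of KDR and 83.4% of VWF. The change in the mural minus endothelial difference (−0.05) was 0.36 with a CT limit of 40, 0.59 in donors ending in 22 and −1.35 to 0.62 with a donor left out.

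Of all 84 genes, 1 was called as reported, PTPRC. The count was 0 without ACTB and B2M as references, in donors ending in 21 or in 22, without donors 2 and 9, without donors 2, 8 and 9, and by the exact permutation test. It was 2 against the median of the detected genes, with the filter on mean CT and with the donor block, 3 by robust regression, 4 by the methods' test without adjustment, and 0 to 2 with a donor left out. The cause of these shifts was not tested. Each gene had 1 well per sample, and the intervals of NES and KDR span more than 7 units.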
